A study of Homo sapiens with 4 samples.

Results

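HMGA1, HMGA2, LIN28B, IGF2BP1, IGF2BP2, IGF2BP3, TERT and RBL2 are 8 genes that tumours share with embryonic tissue, or that have been reported as targets of BORIS. They are described here as 8 of the 18132 genes that the array measures. The rule took every probe set annotated to 1 of these genes alone, which gave 24 probe sets. The set was chosen with values on these 4 arrays already known, so every difference below is a description and carries no test. The arrays compared HCT116 cells given BORIS siRNA with HCT116 cells given a negative siRNA, called control here, and Caco-2 cells given BORIS siRNA with Caco-2 cells given the negative siRNA. HCT116 and Caco-2 are established colorectal cancer lines. RNA was taken after 3 days of silencing, and the RNAiMAX lipid reagent carried the BORIS siRNA. Each of the 4 samples was run on 1 PrimeView array, so no difference has a replicate and 4 arrays set the precision.

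BORIS, encoded by CTCFL, is a germline paralog of the insulator protein CTCF with nearly the same DNA-binding zinc fingers. HMGA1 and HMGA2 are small proteins that bind AT-rich DNA through AT-hooks and bend chromatin, and both are abundant in the embryo and in many carcinomas. LIN28B blocks maturation of the let-7 microRNAs. HMGA2, LIN28B and the IGF2BP RNA-binding proteins are known let-7 targets, and most of them are low in adult tissue and return in tumours. TERT is the catalytic subunit of telomerase, and RBL2, also called p130, is the pocket protein that represses cell cycle genes with E2F4 in resting cells.

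Let-7 recognises its targets by bases 2 to 8, the seed, which is printed in capitals. These 4 mature sequences from RefSeq (GRCh38.p14) are shown because that seed ties HMGA2, LIN28B and the IGF2BP genes to 1 pathway. All 9 mature let-7 and miR-98 5p sequences listed carry it. The array does not measure mature microRNAs, so no let-7 level stands beside them.
hsa-let-7a-5p: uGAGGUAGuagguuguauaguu
hsa-let-7d-5p: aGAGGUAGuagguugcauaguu
hsa-let-7e-5p: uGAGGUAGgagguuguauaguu
hsa-miR-98-5p: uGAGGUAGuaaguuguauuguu

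Promoter windows are shown for HMGA1 and IGF2BP2, which stood lower in HCT116 with BORIS siRNA, and for IGF2BP3 and RBL2, which stood higher in both lines. HMGA2, the member that stood lowest in HCT116, is not shown because no window was listed for it. Each window runs from 250 bases before to 50 bases after the annotated start. Of the 8 genes, 6 had a listed window, and HMGA2 and IGF2BP1 did not. Capitals mark CCCTC or its reverse complement GAGGG, a short core of the CTCF binding motif, searched on both strands.
HMGA1, chr6:34236623-34236922, plus strand of GRCh38.p14: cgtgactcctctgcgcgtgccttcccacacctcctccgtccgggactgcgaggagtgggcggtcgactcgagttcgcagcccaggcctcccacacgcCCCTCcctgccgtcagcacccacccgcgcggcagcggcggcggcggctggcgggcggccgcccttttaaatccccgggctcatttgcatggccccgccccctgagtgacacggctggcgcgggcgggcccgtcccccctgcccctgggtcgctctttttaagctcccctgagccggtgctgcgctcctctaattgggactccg
IGF2BP2, chr3:185824993-185825292, minus strand of GRCh38.p14: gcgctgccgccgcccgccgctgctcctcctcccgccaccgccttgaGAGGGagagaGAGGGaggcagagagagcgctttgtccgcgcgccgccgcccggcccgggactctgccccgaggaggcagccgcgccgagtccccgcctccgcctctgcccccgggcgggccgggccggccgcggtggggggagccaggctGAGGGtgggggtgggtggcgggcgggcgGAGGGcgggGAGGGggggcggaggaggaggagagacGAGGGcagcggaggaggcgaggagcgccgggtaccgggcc
IGF2BP3, chr7:23470442-23470741, minus strand of GRCh38.p14: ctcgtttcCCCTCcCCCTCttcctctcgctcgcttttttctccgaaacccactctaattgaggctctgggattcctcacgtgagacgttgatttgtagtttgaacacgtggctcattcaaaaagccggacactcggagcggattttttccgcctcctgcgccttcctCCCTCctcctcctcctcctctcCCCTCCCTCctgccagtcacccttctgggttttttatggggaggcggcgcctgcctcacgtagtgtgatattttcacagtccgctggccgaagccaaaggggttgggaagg
RBL2, chr16:53434221-53434520, plus strand of GRCh38.p14: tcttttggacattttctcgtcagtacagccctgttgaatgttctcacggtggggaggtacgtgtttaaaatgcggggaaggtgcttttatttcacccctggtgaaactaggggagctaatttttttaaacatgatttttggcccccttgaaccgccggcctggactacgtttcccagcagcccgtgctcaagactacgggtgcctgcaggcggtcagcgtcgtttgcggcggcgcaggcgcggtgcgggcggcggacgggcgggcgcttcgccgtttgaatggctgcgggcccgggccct

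The CCCTC core occurred 1 time in the HMGA1 window, 6 times in that of IGF2BP2, 5 times in that of IGF2BP3 and 0 times in that of RBL2. The TERT window held 6 matches and the LIN28B window 4, the last in a window that does not lie at the listed start of that gene. Of 35116 promoter windows of the same length, 71.2% hold at least 1 match, so its presence is common. The GC box GGGCGG, which SP1 family factors bind, occurred 5 times in HMGA1, 7 times in IGF2BP2 and 3 times in TERT. It occurred 2 times each in RBL2 and LIN28B and 0 times in IGF2BP3, and 45.0% of all windows hold it. The E-box CACGTG, bound by MYC and USF proteins, occurred 2 times in IGF2BP3 and 1 time in TERT, and 7.26% of all windows hold it. In IGF2BP2, 2 matches of these other motifs overlap a CCCTC match, and in TERT 1 does. A match is only a run of letters, and no binding was measured.

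The values are log2 expression values. An array's background was taken as the 95th percentile of its olfactory receptor probe sets, genes not made in these cells, and lay between 4.80 and 5.15. Where only the dimmer of a pair was at background, the difference is a bound, written as at least so much, taken from the brighter value to the background of the dimmer array. CTCFL, the target, had 7 probe sets, of which 6 were at background on all 4 arrays. The other one, of the _x_at kind, was at background in HCT116 and read 5.09 with BORIS siRNA against 5.07 with control in Caco-2, just above background, a difference of 0.02. Values at or this close to background cannot show whether CTCFL was knocked down in either line. CTCF read 8.70 with BORIS siRNA against 9.03 with control in HCT116, and 9.16 against 9.19 in Caco-2. Epithelial keratins KRT8, KRT18 and KRT19 were above background on all arrays. Among Caco-2 identity markers, villin (VIL1) read 9.33 and 9.57 on the Caco-2 arrays, but APOA1, APOB, FABP1, FABP2, ALPI and SI, 6 of 8 measured, were at background there. VIL1 was at background in HCT116. All 7 fibroblast markers were at background on every array. Of 6 measured blood cell markers, HBB was above background on every array and LYZ on both Caco-2 arrays, while PTPRC, CD3E, CD14 and MS4A1 were at background throughout. Of 5 endothelial markers, 2 were above background on each array and PECAM1, CDH5 and TEK were not. The poly-A spike-in controls, added to the RNA before labelling, stood 0.77 higher with BORIS siRNA than with control in HCT116 and differed by -0.06 in Caco-2. The hybridisation controls stood 0.35 higher in HCT116 and 0.02 higher in Caco-2. Their part in the differences below was not tested. In bulk RNA, fewer cells making a transcript and less transcript per cell cannot be told apart.

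In HCT116, the 2 HMGA genes and IGF2BP2 were lower with BORIS siRNA than with control, RBL2 and IGF2BP3 were slightly higher, and TERT lay close to background on both arrays. LIN28B was at background everywhere. In Caco-2, HMGA2, HMGA1, IGF2BP2 and IGF2BP3 differed less than in HCT116, RBL2 about as much and TERT more, and none reached 1.5-fold. Of the 8 genes, 7 were above background on at least 1 HCT116 array. Of these, 3 were lower by 1.5-fold or more, where 9.05% of the 11353 genes above background were. IGF2BP1 was the 1 gene nominally higher by 1.5-fold, where 4.42% of genes were, and its control value was at background. At 2-fold in HCT116, 1 member was lower and 0 were higher, where 1.49% and 0.573% of genes were. In Caco-2, 0 of 7 were lower and 0 of 7 higher by 1.5-fold, where 1.34% and 3.0% of 11483 genes were. At 2-fold in Caco-2 the counts were 0 and 0, where 0.0523% and 0.444% of genes were. The member median, on values as measured, was -0.16 in HCT116 and 0.00 in Caco-2, beside -0.04 and 0.00 over all genes. The genes were chosen with these differences known, so nothing is read from the comparison with the shares.

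**Figure D1:**
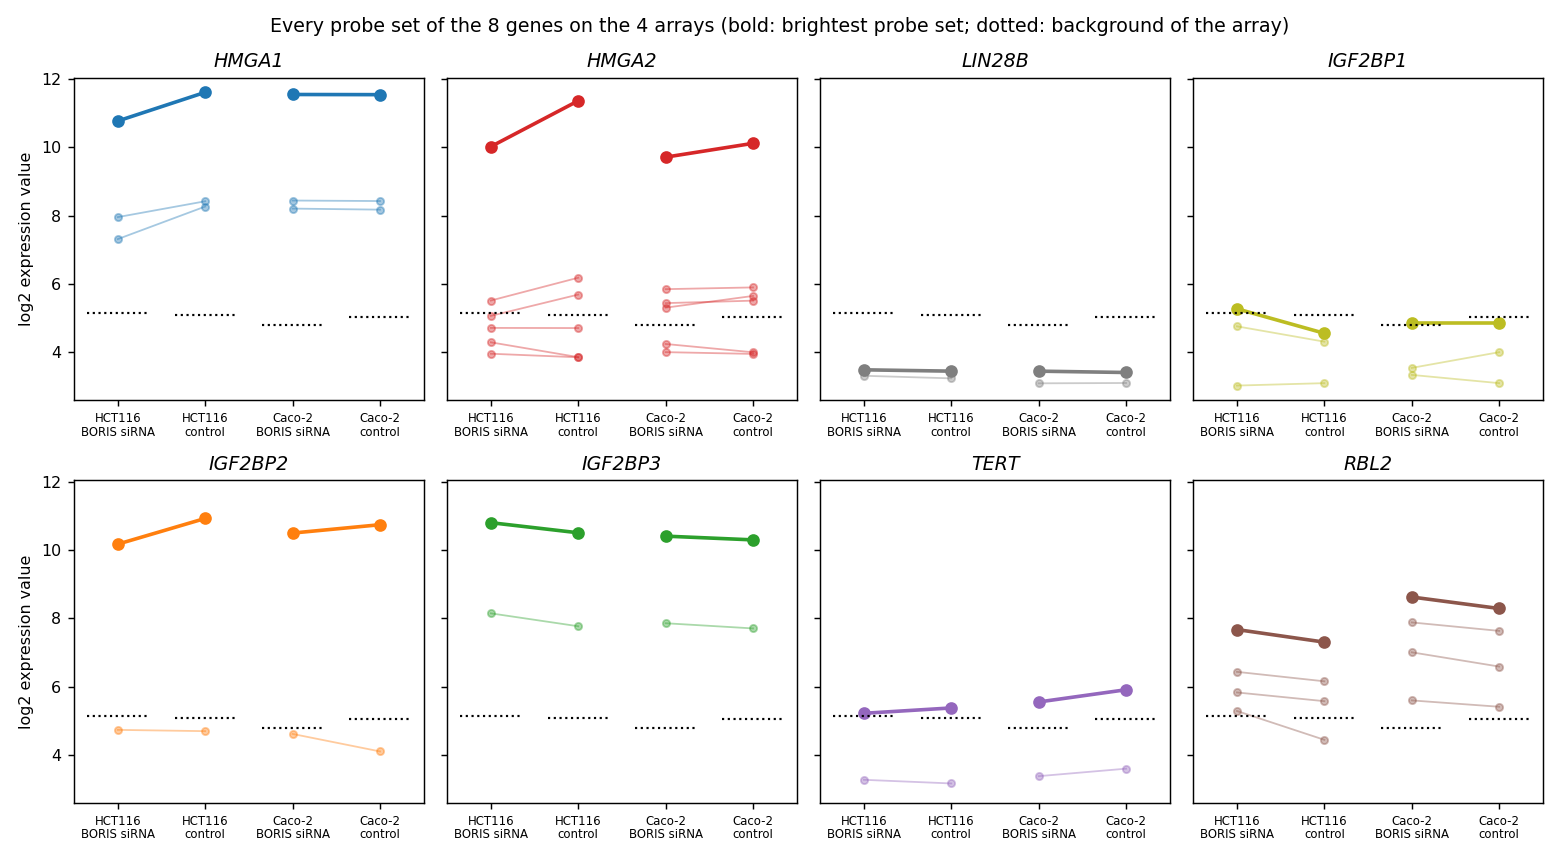
Log2 expression value (vertical axis) of each of the 24 probe sets on the 4 arrays, with a panel for each gene; lines join BORIS siRNA and control within a line, bold marks the brightest probe set of the gene, and dotted bars mark each array's background. HMGA2 and HMGA1 probe sets above background on at least 1 HCT116 array slope upward towards control there. RBL2 slopes downward in both lines, and both LIN28B probe sets stay below background.

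HMGA2 showed the widest siRNA difference of the measured members. Its brightest probe set, 11740656_a_at, read 10.02 with BORIS siRNA and 11.36 with control in HCT116, and 9.71 and 10.12 in Caco-2. The HCT116 control array was thus the highest of the 4, and the other 3 lay within a narrow range. The difference was -1.34 in HCT116, a 2.53-fold lower value, and -0.40 in Caco-2, 1.32-fold lower. In HCT116, HMGA2 was 35th from the lowest of 11353. Among the 756 genes whose level in HCT116 lay within 0.5 of its own, it had the lowest difference, and their median was 0.00. In Caco-2 it was 511th from the lowest of 11483 genes.

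The other 5 HMGA2 probe sets were far dimmer. Probe set 11732032_a_at, above background on all arrays, read 5.52 with BORIS siRNA against 6.19 with control in HCT116, a difference of -0.67. In Caco-2 it read 5.85 against 5.90, a difference of -0.05. Its direction in HCT116 matched that of the brightest probe set. Probe set 11761705_a_at was at background in HCT116 with BORIS siRNA only, which makes it lower there by at least 0.54, and it differed by -0.34 in Caco-2. Probe set 11762147_at read 5.44 with BORIS siRNA and 5.51 with control in Caco-2 and was at background in HCT116. The remaining 2, 11762061_at and 11762062_x_at, were at background on all 4 arrays and give no fold. Of the probe sets measured on both arrays of a line, 2 of 2 were lower in HCT116 and 4 of 4 in Caco-2. All probe sets were lower in Caco-2 for 20.5% of the genes with at least 3 above background there. With at least 3 above it on all arrays, 9.42% of genes were lower on all of them in both lines, a count that leaves out HMGA2, which has 2 such probe sets. As the mean of all 6 probe sets, which includes those at background, the HMGA2 difference in HCT116 was -0.35, and as the median of those above background it was -0.65.

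HMGA1 was lower with BORIS siRNA in HCT116 and nearly equal in Caco-2. Probe set 11747361_x_at read 10.77 with BORIS siRNA and 11.61 with control in HCT116, and 11.54 on each of the 2 Caco-2 arrays. The HCT116 array with BORIS siRNA was the low one, and the other 3 arrays were nearly equal. The differences were -0.84 in HCT116, a 1.79-fold lower value, and 0.00 in Caco-2. Both dimmer probe sets gave the same picture. Probe set 11753817_x_at read 7.31 with BORIS siRNA against 8.27 with control in HCT116, a difference of -0.95, and differed by 0.03 in Caco-2. Probe set 11753571_x_at read 7.96 against 8.42 in HCT116, a difference of -0.46, and differed by 0.02 in Caco-2. Hence 3 of 3 probe sets were lower in HCT116, as were all probe sets of 33.2% of the genes with at least 3 above background. All 3 are of the _x_at kind, which can bind related transcripts, and with that kind left out HMGA1 has no value. As the median of its probe sets, HMGA1 stood at -0.46 in HCT116, short of 1.5-fold. In HCT116, HMGA1 was 362nd from the lowest of 11353 genes.

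Other high mobility group genes, from the HMGB, HMGN and HMG20 families, did not run with HMGA1 and HMGA2 in HCT116. Of 9 measured, 8 were higher and 1 lower with BORIS siRNA, with a median of 0.12, against -0.04 over all genes, of which 54.9% were lower. After a loess correction 7 were higher and 2 lower. HMGN5, a nucleosome-binding protein gene, was the 1 gene of the list past 1.5-fold, where 4.42% of all genes were higher by 1.5-fold. It read 7.88 with BORIS siRNA against 6.90 with control in HCT116, a difference of 0.98. In Caco-2 HMGN5 read 6.88 against 6.98. HMGN4 was the lower one, at -0.20, and HMGB1 and HMGB2 each stood at 0.12. In Caco-2, 6 of 9 were higher and none passed 1.5-fold, where 50.2% of all genes were lower.

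**Figure D2:**
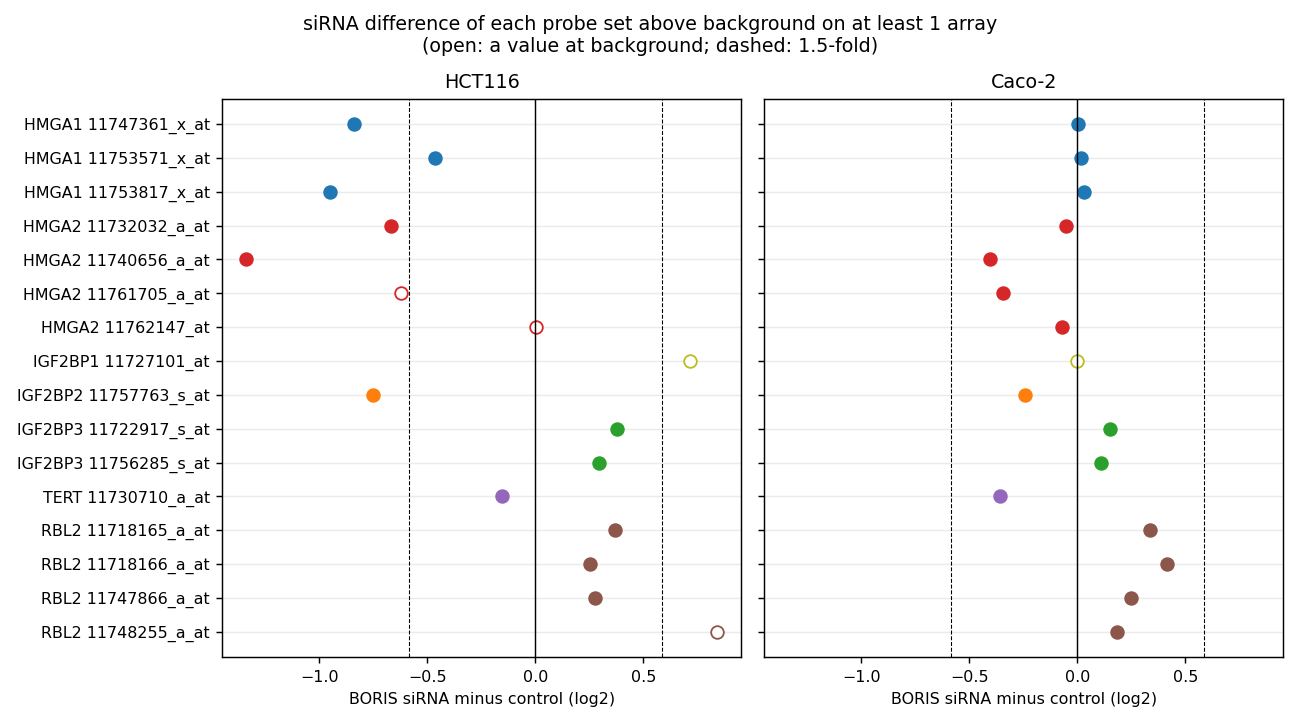
Difference of BORIS siRNA minus control (log2, horizontal axis) for the 16 member probe sets above background on at least 1 array, in HCT116 (left) and Caco-2 (right); open circles involve a value at background and are drawn as measured, and dashed lines mark 1.5-fold. In HCT116 all 3 HMGA1 points lie between -0.95 and -0.46, and in Caco-2 between 0.00 and 0.03.

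LIN28B could not be followed. Its probe set 11720292_at read 3.49 with BORIS siRNA and 3.45 with control in HCT116, and 3.45 and 3.41 in Caco-2. Probe set 11720293_s_at read between 3.10 and 3.32. Both lay under background on every array, so no fold is given. LIN28A, the paralog, read 2.78 to 2.82 and was at background as well.

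The IGF2BP proteins bind mRNAs such as those of IGF2, MYC and ACTB and govern their stability, transport and translation. In HCT116, IGF2BP2 was lower with BORIS siRNA, and IGF2BP3 and IGF2BP1 were higher, IGF2BP1 only just above background. IGF2BP2, probe set 11757763_s_at, read 10.17 with BORIS siRNA against 10.92 with control in HCT116, and 10.50 against 10.74 in Caco-2. The BORIS siRNA array was the lower one in each line, with differences of -0.75 (1.68-fold) in HCT116 and -0.24 (1.18-fold) in Caco-2. Its second probe set, 11741712_a_at, was at background on all arrays, so the value rests on 1 probe set, of the _s_at kind. As the mean of the 2 probe sets, IGF2BP2 stood at -0.36 in HCT116 and 0.13 in Caco-2. Among the 839 HCT116 genes within 0.5 of its level, 2.03% had a lower difference.

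IGF2BP3 was slightly higher with BORIS siRNA on both of its probe sets in both lines. Probe set 11756285_s_at read 10.80 with BORIS siRNA against 10.50 with control in HCT116, a difference of 0.30, and 10.41 against 10.30 in Caco-2, a difference of 0.11. Probe set 11722917_s_at read 8.15 against 7.77 in HCT116, a difference of 0.38, and 7.86 against 7.71 in Caco-2, a difference of 0.15. None of these reached 1.5-fold, and 82.8% of genes in HCT116 and 68.0% in Caco-2 had a lower difference than the brighter probe set.

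IGF2BP1 was at or near background. Probe set 11727101_at read 5.28 with BORIS siRNA in HCT116, above background by a small margin, and 4.56 with control, at background, so it was higher by at least 0.18. In Caco-2 it read 4.87 on both arrays, and no fold is given because the control value was at background. The other 2 probe sets, 11727102_a_at and 11727103_at, were at background on all arrays. Once values under background were set equal to it, 0 members were higher by 1.5-fold in HCT116.

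TERT was measured just above background by 1 of its 2 probe sets. Probe set 11730710_a_at read 5.23 with BORIS siRNA against 5.38 with control in HCT116, where background was 5.15 and 5.09. In Caco-2 it read 5.56 against 5.91, where background was 4.80 and 5.05. The BORIS siRNA array was lower in each line, with differences of -0.16 in HCT116 and -0.36 in Caco-2 (1.28-fold). The margins over background were small, which limits what such a value can show. The other probe set, 11752055_a_at, read 3.17 to 3.61 and was at background on all arrays. In Caco-2, 6.12% of genes had a lower difference than TERT, and in HCT116 37.8% did.

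RBL2 was higher with BORIS siRNA in both lines on every probe set measured on both arrays. Probe set 11718165_a_at read 7.67 with BORIS siRNA against 7.31 with control in HCT116, and 8.63 against 8.29 in Caco-2. The differences were 0.37 (1.29-fold) and 0.34 (1.26-fold), nearly the same in the 2 lines. Probe set 11718166_a_at differed by 0.25 in HCT116 and 0.42 in Caco-2. Probe set 11747866_a_at differed by 0.28 and 0.25. The dimmest, 11748255_a_at, was at background with control in HCT116 and higher by at least 0.20, and differed by 0.19 in Caco-2. Of the 3185 genes with at least 3 probe sets above background on all arrays, 10.9% were higher on all of them in both lines, as RBL2 was with 3. Within 1 line, 24.8% of such genes in HCT116 and 28.9% in Caco-2 were higher on all. None of the RBL2 differences measured on both arrays reached 1.5-fold, and 87.3% of genes in HCT116 and 89.1% in Caco-2 had a lower difference than its brightest probe set.

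**Figure D3:**
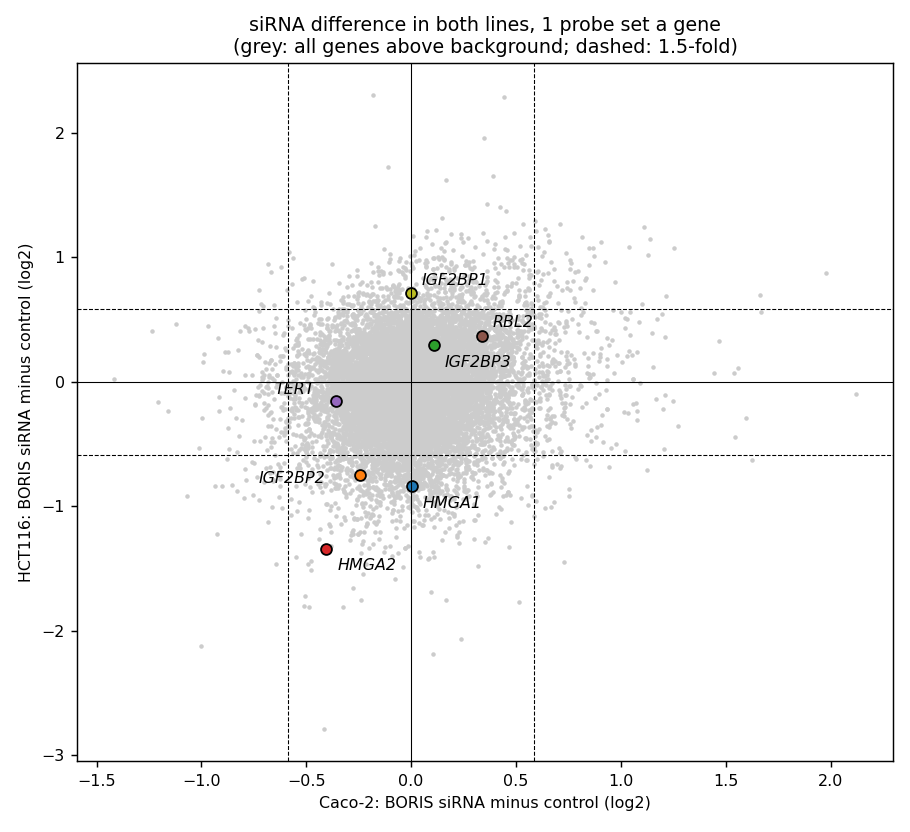
Difference of BORIS siRNA minus control (log2) in HCT116 (vertical axis) against Caco-2 (horizontal axis) for every gene above background on at least 1 array, in grey, with 7 of the 8 genes in colour (LIN28B, at background, is not drawn) and dashed lines at 1.5-fold. HMGA2, at -1.34 and -0.40, lies at the lower edge, HMGA1 lies below the centre at 0.00 in Caco-2, and RBL2 and IGF2BP3 lie above 0 in both lines.

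The lines differed in how large the siRNA difference was. Over all genes, 9.05% were lower and 4.42% higher by 1.5-fold in HCT116, against 1.34% and 3.0% in Caco-2. Wider differences in HCT116 were thus not particular to the members. The HCT116 difference minus the Caco-2 difference was -0.94 for HMGA2, -0.84 for HMGA1 and -0.51 for IGF2BP2. For IGF2BP3 it was 0.19, for TERT 0.20 and for RBL2 0.03. These values have no replicate, and whether the lines respond differently was not tested.

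The lines were next set against each other within each siRNA, as HCT116 minus Caco-2. Of the 8 genes, 0 passed 2-fold in 1 direction with both siRNAs, where 14.8% of 12066 genes did, 7.32% lower and 7.49% higher in HCT116. At 1.5-fold 1 member passed, RBL2, lower in HCT116, where 28.6% of genes did, 14.4% lower and 14.3% higher. RBL2 came closest and was lower in HCT116. Its brightest probe set differed by -0.95 with BORIS siRNA and by -0.98 with control. Probe set 11747866_a_at differed by -1.45 with BORIS siRNA and -1.47 with control, and 11718166_a_at by -1.17 and -1.01, so both passed 2-fold. For the dimmest RBL2 probe set the differences were -0.31 and, with the HCT116 value at background, a value lower by at least 0.32. On all 4 probe sets, each HCT116 array lay below each Caco-2 array.

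For HMGA2 the line difference varied with the siRNA and with the probe set. Its brightest probe set was higher in HCT116 by 0.31 with BORIS siRNA and by 1.24 with control, a 2.37-fold difference on the control arrays. Probe set 11732032_a_at differed by -0.33 with BORIS siRNA and by 0.28 with control. Probe set 11762147_at was at background on both HCT116 arrays and above it on both Caco-2 arrays, lower in HCT116 by at least 0.29 with BORIS siRNA and 0.42 with control. HMGA2 probe sets thus disagreed on which line read higher. As the mean of all probe sets the line difference was -0.16 with BORIS siRNA and 0.09 with control. As the median of those above background it was -0.35 with BORIS siRNA and 0.16 with control. The 2.37-fold difference on the control arrays thus rests on the brightest probe set. The probe sets are annotated to 5 reference transcripts, and which transcripts these cells make was not tested.

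The remaining measured members differed by less than 1.5-fold between the lines with control siRNA. HMGA1 differed by -0.78 with BORIS siRNA and 0.07 with control. IGF2BP2 differed by -0.32 and 0.18, and IGF2BP3 by 0.39 and 0.21. TERT was lower in HCT116 with each siRNA, with differences of -0.33 and -0.53. The order of the 4 arrays for TERT, from high to low, was Caco-2 control, Caco-2 BORIS siRNA, HCT116 control and HCT116 BORIS siRNA.

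**Figure D4:**
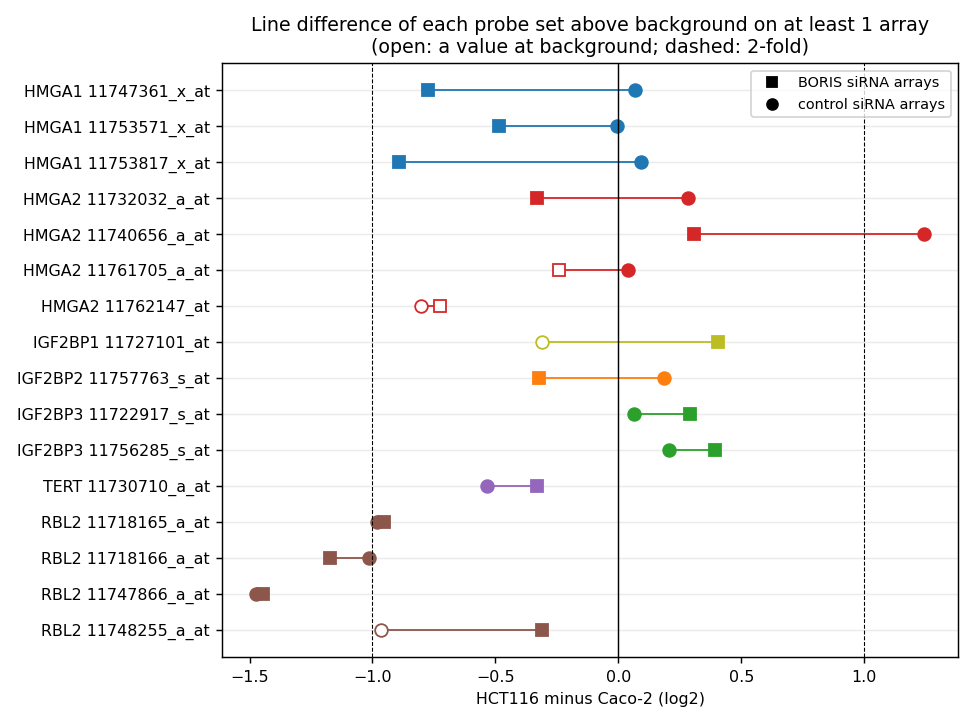
HCT116 minus Caco-2 (log2, horizontal axis) for the 16 member probe sets above background on at least 1 array, with squares for the BORIS siRNA arrays and circles for the control siRNA arrays; open symbols involve a value at background and are drawn as measured, and dashed lines mark 2-fold. The RBL2 points all lie below 0, and the brightest HMGA2 probe set lies at 0.31 and 1.24.

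Genes of the surrounding pathways were taken from lists made with earlier results on these arrays known. Let-7 target genes numbered 14 above background in HCT116, of which 11 were lower and 3 higher with BORIS siRNA, with a median of -0.41, against -0.04 over all genes, of which 54.9% were lower. Without the members, 8 of 9 were lower and 3 passed 1.5-fold, with a median of -0.24, and the count was the same after quantile normalization or a loess correction. Beside them, 9.05% of all genes were lower by 1.5-fold. ARID3B, a DNA-binding protein gene, read 6.28 with BORIS siRNA against 7.47 with control in HCT116, a difference of -1.19. THBS1, which encodes thrombospondin, stood at -0.87 and DICER1, the enzyme that cuts microRNA precursors, at -0.85. TGFBR1, a TGF-beta receptor, was the higher one at 0.34. MYC stood at -0.24. In Caco-2, 5 of the 11 non-members were lower and 6 higher, where 50.2% of all genes were lower. ARID3B stood at -0.28 there and TGFBR1 at 0.42, and none passed 1.5-fold.

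Of 15 genes that process let-7 above background in HCT116, 11 were lower, with a median of -0.21, where 54.9% of all genes were lower. On values as measured, DICER1 and AGO4 were lower by 1.5-fold, 2 of 15, where 9.05% of all genes were. AGO4, an Argonaute gene, read under background once BORIS siRNA was given, which makes it lower by at least 0.50. XPO5, the exporter of microRNA precursors, stood at -0.31. TUT4 and TUT7, uridylyl transferases that act with LIN28 proteins, stood at 0.02 and 0.01. In Caco-2, 9 of 15 were lower, with a median of -0.02, where 50.2% of all genes were lower. Of 12 let-7 host genes and let-7 microRNA genes listed, 2 host genes were measured, and MIR99AHG was at background on all arrays. HUWE1 read 8.16 with BORIS siRNA against 9.00 with control in HCT116, and differed by 0.03 in Caco-2.

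Among telomerase and shelterin genes, 15 of 20 other than TERT were lower in HCT116, with a median of -0.11, and 2 were lower and 1 higher by 1.5-fold. Over all genes 54.9% were lower, 9.05% lower by 1.5-fold and 4.42% higher by 1.5-fold, so the counts past 1.5-fold lie near those shares. TERF2, a shelterin protein that protects chromosome ends, read 8.55 with BORIS siRNA against 9.49 with control in HCT116, a difference of -0.94, and differed by -0.26 in Caco-2. WRAP53, which brings telomerase to Cajal bodies, stood at -0.60 in HCT116. POT1, which binds the single-stranded telomere end, was higher by 0.62 in HCT116 and by 0.10 in Caco-2. DKC1, NOP10, NHP2 and GAR1, the core proteins of the telomerase RNA particle, differed in HCT116 by 0.09, 0.16, -0.20 and 0.22. With quantile normalization or a loess correction WRAP53 was no longer past 1.5-fold, at -0.54 and -0.55. In Caco-2, 11 of 20 were lower, none by 1.5-fold, where 50.2% of all genes were lower.

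Of 16 regulators of the TERT promoter, 11 were lower in HCT116, with a median of -0.20, and 3 were lower and 1 higher by 1.5-fold, beside the same shares of 54.9%, 9.05% and 4.42% over all genes. ETS1 read 6.68 with BORIS siRNA against 8.11 with control in HCT116, a difference of -1.42, and differed by 0.08 in Caco-2. SP1 stood at -0.66 and ETV5 at -0.63. GABPA, the ETS family factor known to bind the mutant TERT promoter in other tumours, was higher by 0.60 in HCT116 and 0.33 in Caco-2. In Caco-2, 8 were lower and 8 higher, where 50.2% of all genes were lower.

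The partners of RBL2 divided. Of 28 pocket protein, E2F, DREAM and G1 cell cycle genes other than RBL2 in HCT116, 19 were lower and 9 higher, with a median of -0.05. Beside them, 54.9% of all genes were lower. After a loess correction 15 of the 28 were lower and 13 higher. RB1 stood at -0.01 in HCT116 and 0.08 in Caco-2, E2F4 at -0.07 and -0.21, and RBL1 was at background in HCT116. Subunits of the MuvB core that RBL2 binds did not move together. LIN9 was higher by 0.48 in HCT116 and 0.47 in Caco-2, and LIN52 by 0.26 and 0.31. LIN37 stood at -0.28 and -0.10, LIN54 at -0.40 and 0.05, and RBBP4 at 0.03 and 0.18. CCND1, the cyclin that starts pocket protein phosphorylation, read 11.37 with BORIS siRNA against 12.47 with control in HCT116, a difference of -1.09, and differed by -0.27 in Caco-2. CDKN1A, the p21 inhibitor, stood at -0.68 and -0.34, and CCNE2, an E2F target, was higher by 0.87 and 0.41. In Caco-2, 20 of 29 were higher, or 17 after quantile normalization, and CDK6 was the 1 gene past 1.5-fold, at 0.71. Beside these, 50.2% of all genes were lower in Caco-2 and 3.0% higher by 1.5-fold.

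The IGF2BP proteins bind the mRNA of IGF2, a ligand of the IGF axis. The list of IGF ligands, receptors, receptor substrates and binding proteins held 10 genes above background in HCT116. Of these, 6 were lower, with a median of -0.29, where 54.9% of all genes were lower. IRS2 read 6.06 with BORIS siRNA against 7.32 with control, a difference of -1.25. The insulin receptor gene INSR read 5.98 against 7.05, a difference of -1.07. These 2 of 10 were lower by 2-fold, where 1.49% of all genes were. IGF1R stood at -0.57 in HCT116 and 0.24 in Caco-2. In Caco-2, 7 of 8 were higher on values as measured, with a median of 0.24 and none past 1.5-fold, where 50.2% of all genes were lower. That count includes IRS2 and IGF1, whose control values were at background. IGF2 is covered only by 6 probe sets that are also annotated to INS-IGF2, which the rule of 1 gene per probe set leaves out.

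The oncofetal list owes its HCT116 median of -0.44 to the members, which were chosen on these values. Without them, 3 genes were above background there, with a median of -0.18. AFP, SALL4, DLK1, LIN28A and TRIM71 were at background on all 4 arrays or, for SALL4, above it by a small margin with BORIS siRNA in Caco-2. TPBG, the 5T4 oncofetal antigen, read 7.94 with BORIS siRNA against 8.63 with control in HCT116, a difference of -0.70, and 7.94 on both Caco-2 arrays. GPC3, glypican-3, was at background in HCT116 and read 7.72 against 7.41 in Caco-2, a difference of 0.32. CEACAM6 stood at 0.07 in HCT116 and -0.24 in Caco-2. Of 8 mRNAs reported to be bound by IGF2BP proteins, members left out, 6 were lower in HCT116 and 7 in Caco-2, and none passed 1.5-fold. Their Caco-2 median was only -0.03, and after quantile normalization 6 were lower there. Over all genes 54.9% were lower in HCT116 and 50.2% in Caco-2. ACTB stood at -0.48 in HCT116, MKI67 at -0.46 and CTNNB1 at 0.04. Of 9 epithelial to mesenchymal transition genes linked to HMGA2 in HCT116, 5 were lower and 4 higher, where 54.9% of all genes were lower. CDH1 and SNAI2 were lower by 1.5-fold on values as measured, where 9.05% of all genes were. SNAI2 was at background with BORIS siRNA. After quantile normalization or a loess correction CDH1 no longer passed, at -0.56 and -0.57. CDH1, which encodes E-cadherin, stood at -0.60 in HCT116 and 0.63 in Caco-2, and VIM, which encodes vimentin, at 0.21 and 0.76.

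**Figure D5:**
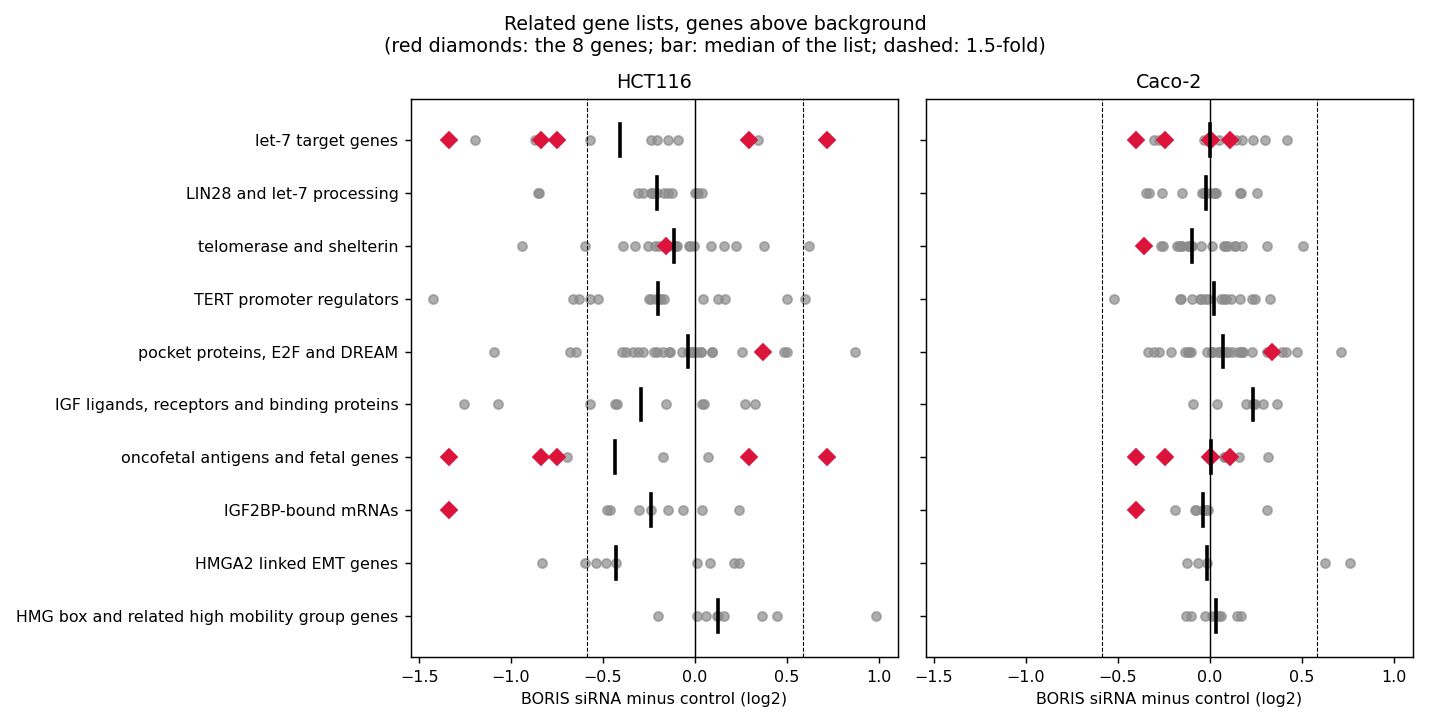
Difference of BORIS siRNA minus control (log2, horizontal axis) for genes above background in 10 lists (rows), in HCT116 (left) and Caco-2 (right); red diamonds are the members, grey circles the other genes, bars the list medians and dashed lines 1.5-fold. The HCT116 medians, members included, run from -0.44 for oncofetal genes (-0.18 without members) to 0.12 for high mobility group genes, and the Caco-2 medians from -0.10 to 0.24.

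The genes most like a member over the 4 arrays were found by the distance between log2 values centred on each gene's mean, among 12066 genes. For HMGA2 they were IQSEC1 at a distance of 0.22, TNFAIP3 at 0.23 and LAMP3 at 0.24. IQSEC1 read 6.88 with BORIS siRNA against 8.02 with control in HCT116, and 6.34 against 6.68 in Caco-2. For RBL2 they were BCKDHB at 0.02, PRKAA1 at 0.08 and CENPU at 0.08. For TERT they were SLURP1 at 0.02, CFAP92 at 0.04 and E2F5 at 0.05. For LIN28B, whose values are background, they were RALB, AGAP5 and TARDBP, each nearly flat over the arrays. A likeness over 4 arrays is a weak description.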

How the data were processed

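Total RNA of 2 cell lines under 2 siRNAs was measured on 4 Affymetrix PrimeView arrays, with TRIzol extraction and biotin labelling by a 3' in vitro transcription kit, per the labels' protocols. The deposited table holds log2 expression values for 49395 probe sets, the unit following from their range of 2.13 to 14.17. The array medians lay between 5.46 and 5.48. How background was corrected and arrays were normalized and summarised was not given in the sources used here. The platform table paired 44988 probe sets with 1 gene, 1832 with several and left 2473 others unlisted; 102 were control probe sets. Members and gene lists were chosen with earlier results of these data known. A gene was represented by its brightest probe set, and named genes were all members, up to 4 genes per list with the largest siRNA difference and up to 4 with the largest line difference, the 3 nearest genes, and CTCFL and CTCF; some further list genes were named after their values were seen. Differences were computed in Python 3.11.15 with pandas 2.3.3 and counted at 1.5-fold and 2-fold, without a test, since each group has 1 array. Background came from olfactory receptor probe sets. The loess (statsmodels 0.14.6, span 0.3) and quantile steps were tried on simulated data without noise. That checks the code and cannot show how the steps act on noisy arrays. Alternatives were the mean or median of probe sets, no _x_at or _s_at probe sets, quantile normalization, loess, 16 added on the linear scale, and background raised.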

Additional observations from a re-analysis of the deposited data

Results flagged for a closer look

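CDH1, the E-cadherin gene, was in the list of epithelial to mesenchymal transition genes linked to HMGA2. It moved in opposite directions in the 2 lines, just past 1.5-fold in each. It read 9.01 with BORIS siRNA against 9.61 with control in HCT116, a difference of -0.60, and 7.64 against 7.01 in Caco-2, a difference of 0.63. After quantile normalization it fell short of 1.5-fold in both lines, at -0.56 in HCT116 and 0.58 in Caco-2. After a loess correction it stood at -0.57 in HCT116, short of 1.5-fold, and 0.59 in Caco-2. The difference between the lines was not tested.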

How the results depend on the processing

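The results depend mainly on which probe set stands for a gene. HMGA2 in HCT116 was -0.35 as the mean of all probe sets and -0.65 as the median of those above background, and between -1.34 and -1.32 under the other 5 alternatives. The count of members lower by 1.5-fold in HCT116 was 1 with the mean of all probe sets and 1 without _x_at and _s_at probe sets, where HMGA1 and IGF2BP2 have no value, and 2 with the median of probe sets above background, where HMGA1 was -0.46. The count of members higher by 1.5-fold there was 0 with the mean of all probe sets, 0 with 16 added on the linear scale and 0 with background raised, which rests on IGF2BP1. With the median of probe sets above background, 1 gene, RBL2, passed 2-fold between the lines with both siRNAs. No member value past 1.5-fold changed sign under the alternatives that gave it a value. Of the list genes other than members, 22 passed 1.5-fold in HCT116 and 3 in Caco-2. Under quantile normalization and loess, the alternatives run for them and chosen after seeing the data, 0 changed sign. CDH1 and WRAP53 no longer passed in HCT116 under either, nor did CDH1 in Caco-2 under quantile normalization. The loess correction was not applied to the line differences. No paired analysis was possible because each group has 1 array. Genes near background, TERT and IGF2BP1 among them, limit what their values can show.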
